A study of Mus musculus with 18 samples.

Results

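The 8 genes described here encode the natriuretic peptides, the protease and receptors that act on them, and the contractile proteins that mark the fetal cardiac gene programme. They were taken by symbol from a table of 24419 gene symbols: the peptide genes Nppa and Nppb, the protease gene Corin, the receptor genes Npr1 and Npr3, the myosin heavy chain genes Myh6 and Myh7, and the skeletal actin gene Acta1. All 8 were in the table, and all 8 were among the 13333 symbols with a value of at least 1 FPKM in at least 1 mouse, which were the ones tested. FPKM, fragments per kilobase of transcript scaled to the mapped fragments of the library, is a level per length, so levels can be compared between genes.

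Polyadenylated RNA from the heart of 18 C57BL/6 mice aged 8 weeks was sequenced, with 3 mice in each of 6 groups. In 5 groups the proximal left anterior descending coronary artery had been ligated under pentobarbital to give acute myocardial infarction (AMI), and hearts were taken 10 min, 1 h, 6 h, 24 h or 72 h later. The other group, called control in the labels and sham in parts of the study, gives the level without ligation. No transgene or drug was used in these groups, the mice were male, and the study took the infarcted left ventricle, so remote muscle of the same heart was not analysed here. The study speaks of 18 mice in 6 groups, and the sample titles number the libraries 1 to 3 in each. Each library was therefore taken as 1 mouse, and p-values measure the spread between these libraries.

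In the adult heart, atrial muscle secretes atrial natriuretic peptide (ANP, from Nppa), while ventricular muscle makes B-type natriuretic peptide (BNP, from Nppb) when it is stretched or injured. The serine protease corin cuts the ANP precursor at the cell surface, the receptor encoded by Npr1 is a guanylyl cyclase that answers both peptides with cGMP, and the receptor encoded by Npr3 takes the peptides up and clears them. Fetal mouse ventricle expresses beta myosin heavy chain (Myh7) and skeletal actin (Acta1), while alpha myosin heavy chain (Myh6) and cardiac actin (Actc1) predominate in the adult. Stressed adult muscle can return part of the way to the fetal pattern.

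The libraries matched ventricular muscle by their markers, with 1 exception. The summed FPKM of 8 cardiomyocyte markers was 54366 to 58031 in control mice and 18221 to 23805 at 72 h, whereas that of 7 leukocyte markers went from 59.3 to 82.6 up to 1120 to 1274, and that of 6 fibroblast markers from 224 to 245 up to 2310 to 2994. Skeletal muscle markers were near 0, with a sum of at most 6.04 before 72 h and 10.6 to 18.1 at 72 h, most of it Tnnt3 (8.38 to 16.8). The 4 atrial markers (Sln, Myl7, Myl4, Bmp10) summed to 1.43 to 3.05 in 17 libraries and to 96.6 in 6 h replicate 1, where Sln was 12.5, Myl7 18.7 and Bmp10 2.48 FPKM while Bmp10 was listed at 0 in all others. The part of atrial tissue in the 6 h results was not tested. Without that mouse, Nppb remained the 1 member called at 6 h against control. The log2 changes of the members not called were then 0.28 for Nppa (limma adjusted p = 0.684), 0.0016 for Corin (0.989), -0.26 for Npr1 (0.120), 0.051 for Npr3 (0.889), -0.19 for Myh6 (0.124), 0.45 for Myh7 (0.467) and 0.53 for Acta1 (0.123). In bulk tissue, fewer cells of a type and less RNA per cell cannot be told apart.

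Neither peptide gene differed detectably from control in the first hour. Nppb passed the test as higher from 6 h on and Nppa from 24 h on, though 2 of the 3 Nppa values at 6 h also lay above all controls. The higher of these 2, 851 FPKM, came from 6 h replicate 1, the library with atrial markers. At 24 h both stood at more than 5 times the control mean, which put them among the larger rises of the whole transcriptome. The genes lie side by side on mouse chromosome 4 (GENCODE M21 on mm10: Nppb at chr4:147985788-147987205 and Nppa at chr4:148000722-148002079, both on the plus strand). The bases upstream of their RefSeq start sites are shown because these genes rose most. Capitals mark matches on either strand to the GATA motif (the letters GATA after A or T and before A or G), the MCAT motif CATTCC and the NKE motif AAGTG. For Nppa it is the 250 bases at chr4:148000472-148000721 on the plus strand of GRCm38.p6. For Nppb it is the 27 bases at chr4:147985795-147985821 that hold its matches, since the GENCODE model of that gene starts further upstream.
Nppa: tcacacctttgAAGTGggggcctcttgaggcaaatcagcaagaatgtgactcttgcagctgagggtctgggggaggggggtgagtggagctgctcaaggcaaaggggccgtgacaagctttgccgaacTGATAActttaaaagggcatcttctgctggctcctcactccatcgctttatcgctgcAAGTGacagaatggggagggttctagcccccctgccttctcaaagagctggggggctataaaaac
Nppb: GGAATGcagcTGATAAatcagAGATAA
The Nppa stretch held 1 GATA match, 122 bases before the start, and 2 NKE matches, while the 250 bases before Nppb held 2 GATA matches and 1 MCAT match. Of 32841 RefSeq promoter windows of the same length, 26.5% held a GATA match, 12.6% an MCAT match and 40.7% an NKE match, so these letters alone are common.

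Nppa, the ANP precursor, measured 485, 206 and 338 FPKM in the control mice. It was 378, 264 and 287 at 10 min and 404, 376 and 381 at 1 h, inside the control range. At 6 h the mice spread widely, at 851, 606 and 254. At 24 h it reached 1563, 2273 and 1548, and at 72 h 1614, 1743 and 2021, so that all 6 late mice lay above the other 12. The mean rose from 343 ± 140 in controls to 1795 ± 414 in the 24 h mice and 1793 ± 208 in the 72 h mice (SD, n = 3 each), which moved Nppa from place 260 to places 33 and 18 among all symbols by mean FPKM. On the log2(FPKM + 1) scale the change against control was 2.45 ± 0.31 (SE) at 24 h (limma, Benjamini-Hochberg adjusted p = 0.00413) and 2.46 ± 0.27 at 72 h (adjusted p = 3.86e-05). At 6 h it was 0.65 ± 0.47 (adjusted p = 0.316), and without 6 h replicate 1, the library with atrial markers, 0.28 (adjusted p = 0.684). The means at 24 h and 72 h differed by 0.016 ± 0.19 (adjusted p = 0.954).

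Nppb, the BNP precursor, was far less abundant and tighter in controls, at 74.4, 63.5 and 61.3 FPKM. It measured 75.4, 58.6 and 62.0 at 10 min and 47.6, 56.5 and 87.6 at 1 h. At 6 h it was 646, 485 and 194, at 24 h 343, 411 and 467, and at 72 h 214, 274 and 234. Every mouse from 6 h on lay above every control mouse, and the 72 h mice lay below all 24 h mice. The fold of the mean over control was 6.65 at 6 h, 6.13 at 24 h and 3.63 at 72 h, with log2 changes of 2.55 ± 0.39 (adjusted p = 0.00485), 2.59 ± 0.13 (adjusted p = 0.000326) and 1.84 ± 0.11 (adjusted p = 1.01e-06). Without 6 h replicate 1 the 6 h mean was 5.11 times control (log2 change 2.20, adjusted p = 0.00708). The fall from 24 h to 72 h was tested directly and was -0.75 ± 0.15 (adjusted p = 0.00651). It was -0.75 with all 18 mice in one fit (adjusted p = 0.0551) and 0.20 with libraries scaled to cardiomyocyte markers (adjusted p = 0.490). By mean, Nppb ranked highest at 6 h, which overlapped with both 24 h and 72 h, and the control, 10 min and 1 h groups came last and overlapped.

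**Figure D1:**
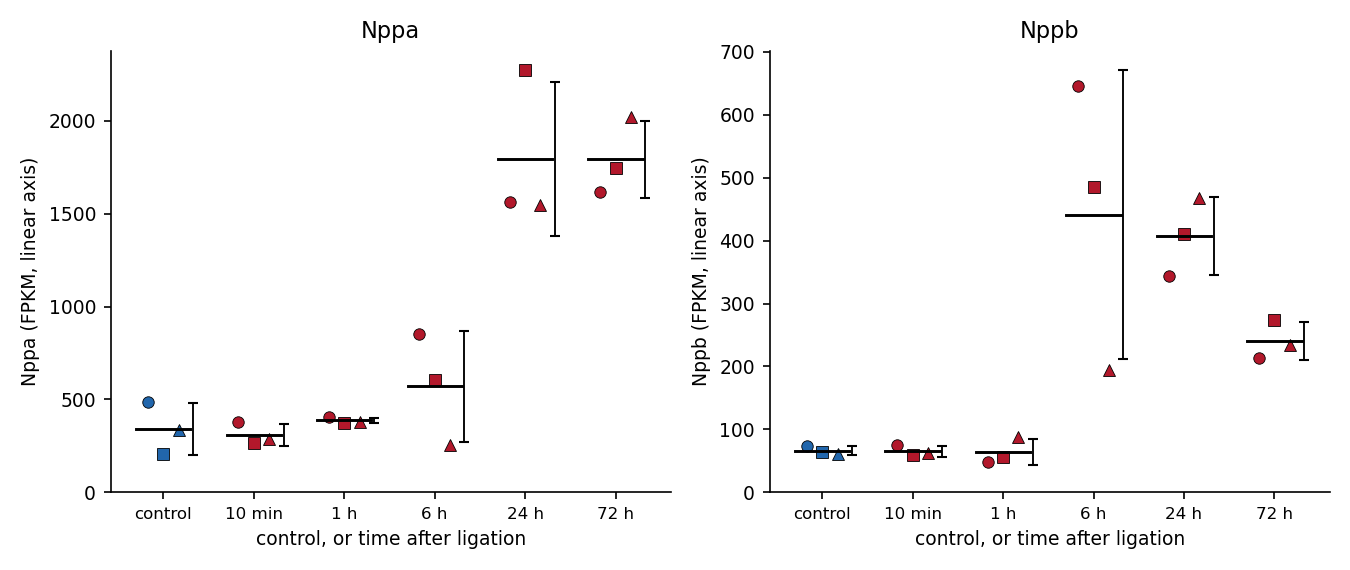
FPKM of Nppa (left) and Nppb (right) in each of the 18 mice, on linear axes from 0; circles, squares and triangles are replicates 1, 2 and 3, blue is control and red is after ligation, bars are group means and whiskers SD (n = 3). Nppb is above the control range in all 3 mice at 6 h (194 to 646), whereas Nppa leaves it in all mice only at 24 h (1548 to 2273).

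The level of the processing protease fell late in FPKM. Corin measured 106, 106 and 102 FPKM in controls and 95.7, 122 and 115 at 10 min. It was 156, 149 and 120 at 1 h, all above the control mice, and 107, 97.8 and 112 at 6 h. The 24 h mice were at 140, 108 and 105, and the 72 h mice at 41.4, 38.0 and 35.0, below every other mouse. The mean fell to 0.365 of control at 72 h, a log2 change of -1.43 ± 0.07 (adjusted p = 4.39e-07) that was 0.034 once libraries were scaled to cardiomyocyte markers, and from 24 h to 72 h by 1.59 on the log2 scale (SE 0.14, adjusted p = 0.00017). The 1 h values did not pass the test (log2 change 0.43 ± 0.09, adjusted p = 0.134), but did without 1 h replicate 3, the lowest of them (0.54, adjusted p = 0.00374). Without other single mice the change went down to 0.35, with a limma adjusted p of up to 0.362. From 1 h to 6 h Corin fell by 0.41 on the log2 scale (SE 0.11, adjusted p = 0.0395). That call was lost without 1 h replicate 1 (adjusted p = 0.129), 1 h replicate 2 (0.139), 6 h replicate 1 (0.0744) or 6 h replicate 2 (0.0864).

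Both receptor genes were expressed at a low level and were lower in FPKM at 72 h, but not once scaled to cardiomyocyte markers. On that scale the median of all genes rose by 1.62 log2, more than either receptor gene. Scaled to endothelial markers, both stayed lower but neither passed the test. Npr1, the guanylyl cyclase receptor, was 6.02, 5.83 and 6.28 FPKM in controls. Its level in the 10 min mice was 5.41, 5.63 and 5.92, in the 1 h mice 6.59, 5.36 and 6.45, and in the 6 h mice 4.96, 5.30 and 4.49. The 24 h mice had 4.74, 6.38 and 5.24 and the 72 h mice 4.89, 4.57 and 4.22. The 6 h and 72 h mice lay below all control mice, and the neighbouring groups in the order of means all overlapped. The change was -0.34 ± 0.08 at 72 h (adjusted p = 0.00363), or 0.97 once scaled to cardiomyocyte markers, and -0.25 ± 0.09 at 6 h (adjusted p = 0.0838).

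Npr3, the clearance receptor, was 6.92, 5.16 and 8.68 FPKM in controls and 6.63, 7.78 and 9.74 at 10 min. At 1 h it stood at 10.2, 10.5 and 9.97, above every other mouse, and at 6 h at 7.61, 8.53 and 5.84. It was 4.28, 2.43 and 2.26 in the 24 h mice, below all control mice, and 5.47, 3.03 and 4.01 in the 72 h mice, where 1 mouse lay inside the control range. Npr3 fell to 0.432 of the control mean at 24 h (it fell by 1.00 on the log2 scale, SE 0.24, adjusted p = 0.0186) and to 0.602 at 72 h (-0.62 ± 0.20, adjusted p = 0.0203), or 0.67 on the log2 scale once scaled to cardiomyocyte markers. From 6 h to 24 h it fell by 1.08 on the log2 scale (SE 0.22, adjusted p = 0.0267). The 1 h values did not pass the test (0.53 ± 0.15, adjusted p = 0.244). The 24 h call was lost without control replicate 1 (adjusted p = 0.0692), control replicate 3 (0.0652) or 24 h replicate 2 (0.0516), and the 72 h call without control replicate 3 (0.0724), 72 h replicate 2 (0.0697) or 72 h replicate 3 (0.0541). The call from 6 h to 24 h was lost without 6 h replicates 1, 2 or 3 (0.0784, 0.0985 and 0.0570) or 24 h replicate 2 (0.0963).

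**Figure D2:**
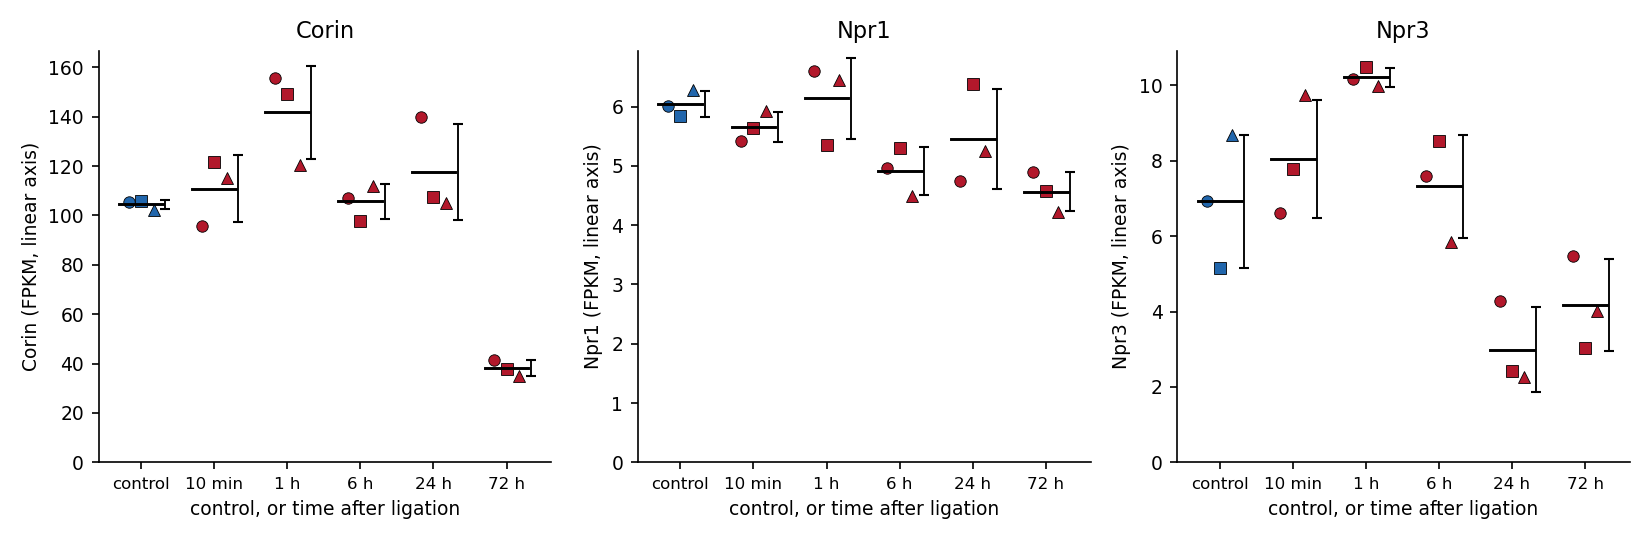
FPKM of Corin, Npr1 and Npr3 in each mouse, on linear axes from 0; circles, squares and triangles are replicates 1, 2 and 3, blue is control and red is after ligation, bars are group means and whiskers SD (n = 3). The 3 Corin values at 72 h (35.0 to 41.4) lie below all others. The 3 Npr3 values at 1 h (9.97 to 10.5) lie above all others, though the 1 h change against control did not pass the test.

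Among the contractile genes, the adult myosin Myh6 was lower than control at 24 h and 72 h. The fetal myosin Myh7 rose to 24 h and then fell below control. Myh6, the main myosin heavy chain of the adult mouse ventricle, was 5279, 4903 and 4890 FPKM in controls, at place 8 of all symbols. It was 5056, 5006 and 4561 at 10 min, 5108, 5296 and 5300 at 1 h, and 3803, 4531 and 4267 at 6 h, when all mice lay below all controls. It was 2618, 2606 and 1553 at 24 h and 1642, 1180 and 1307 at 72 h. The mean was 0.450 of control at 24 h (log2 change -1.19 ± 0.21, adjusted p = 0.00897) and 0.274 at 72 h (-1.88 ± 0.14, adjusted p = 3.52e-06). The 6 h change was -0.26 ± 0.09 (adjusted p = 0.0635), and it passed the test without 6 h replicate 2, the highest of its group (-0.32, adjusted p = 0.0376). Without other single mice it came as near to no change as -0.19, with a limma adjusted p of up to 0.219. From 72 h against 24 h the difference was -0.69 ± 0.24 (adjusted p = 0.0504), with overlapping groups.

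Direct tests placed falls of Myh6 in both intervals around 6 h, but each call was lost without any of several mice. With each mouse left out in turn, the log2 change stayed at -0.38 to -0.25 for 6 h against 1 h. For 24 h against 6 h it stayed at -1.06 to -0.68. From 1 h to 6 h Myh6 fell by 0.32 on the log2 scale (SE 0.09, adjusted p = 0.0381). That call was lost without 1 h replicates 1, 2 or 3 (adjusted p = 0.105, 0.139 and 0.119) or 6 h replicates 1 or 3 (0.0650 and 0.0517). From 6 h to 24 h Myh6 fell by 0.93 (SE 0.22, adjusted p = 0.0374), and that call was lost without 6 h replicates 1, 2 or 3 (0.0857, 0.124 and 0.0953) or 24 h replicate 2 (0.0898).

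Myh7, which encodes the slower beta isoform, was 123, 108 and 108 FPKM in controls and 90.2, 86.6 and 82.2 at 10 min, below all control mice. It was 110, 107 and 127 at 1 h. The 6 h mice were far apart at 167, 271 and 88.0, and the 24 h mice were at 300, 260 and 149, above all controls. At 72 h it was 58.8, 70.8 and 68.6, below every mouse of the other groups. Myh7 rose to 2.09 times control at 24 h (log2 change 1.00 ± 0.24, adjusted p = 0.0208) and fell to 0.585 of control at 72 h (-0.77 ± 0.09, adjusted p = 6.13e-05), or 0.71 on the log2 scale once scaled to cardiomyocyte markers. The fall from 24 h to 72 h was -1.77 ± 0.25 (adjusted p = 0.00141), with only 0.248% of all genes tested as low or lower. The 24 h call was lost without control replicates 1, 2 or 3 (adjusted p = 0.0633, 0.0734 and 0.0691) or 24 h replicate 2 (0.0573). The 10 min change of -0.38 ± 0.07 did not pass (adjusted p = 0.0717), nor did the 6 h change of 0.49 ± 0.35 (adjusted p = 0.318), which did pass without 6 h replicate 3 (0.91, adjusted p = 0.0203). That replicate was the lowest of its group. Without other single mice the 6 h change went down to 0.11, with a limma adjusted p of up to 0.767.

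The ratio of Myh7 to Myh6 combined these changes. Beta myosin FPKM was 0.0232, 0.0220 and 0.0222 of alpha myosin FPKM in the control mice and 0.0178, 0.0173 and 0.0180 at 10 min, which did not overlap. It was 0.0215, 0.0202 and 0.0239 at 1 h and 0.0440, 0.0599 and 0.0206 at 6 h, when 2 mice lay above all controls and replicate 3 lay below them. At 24 h it reached 0.115, 0.0997 and 0.0962, above every other mouse, and at 72 h it was 0.0358, 0.0600 and 0.0525. The log2 ratio was higher than control by 2.20 ± 0.08 (SE) at 24 h, 4.60 times, and by 1.11 ± 0.22 at 72 h, 2.15 times. It was lower by 0.34 at 10 min, a difference of -0.34 ± 0.03. In exact two-sided permutation tests these differences each had p = 0.1, the smallest p that 3 against 3 mice allow, and p = 0.15 when adjusted over 9 comparisons. The differences at 1 h (-0.041 ± 0.075, exact permutation p = 0.7, adjusted 0.7) and 6 h (0.75 ± 0.46, exact permutation p = 0.4, adjusted 0.45) came with overlapping groups, and the 6 h value was 1.19 without 6 h replicate 3, 0.42 without 6 h replicate 2 and 0.65 without 6 h replicate 1. At 72 h the ratio was above control although Myh7 itself was below control, since Myh6 was lower still (0.274 of control against 0.585).

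The ratio carries 2 limits of the measurement. Of the 150-base windows of the longest Myh7 transcript, 5.43% occur unchanged in Myh6, and of the 50-base windows 22.2% do, so some reads may have been shared out between the myosins. Myh7 also shares 484 exon bases (5.62% of its exons) with Mhrt, an antisense RNA, and the sources used here do not say whether counting used strand. Mhrt fell from a mean of 20.1 FPKM in controls to 9.07 at 24 h (log2 change -1.09 ± 0.19, adjusted p = 0.00869) and 7.28 at 72 h (-1.40 ± 0.22, adjusted p = 0.000449). The exons of Nppa overlap those of an antisense gene, Gm13054, over 61.5% of their bases, and that gene was not in the table. Every other member except Nppb and Acta1 also had some exon bases opposite an antisense gene.

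Acta1, the skeletal actin of striated muscle, was 167, 145 and 217 FPKM in controls. It was 143, 135 and 93.5 at 10 min and 144, 135 and 128 at 1 h, all below the control mice. It then measured 264, 307 and 206 in the 6 h mice, 394, 420 and 206 in the 24 h mice, and 264, 215 and 242 in the 72 h mice, and each of these groups overlapped with control. Acta1 rose by 0.90 ± 0.29 on the log2 scale at 24 h (1.93 times control, adjusted p = 0.0455) and by 0.46 ± 0.14 at 72 h (1.36 times, adjusted p = 0.0168). The 6 h change of 0.55 ± 0.18 against control did not pass (adjusted p = 0.0594), though it did without control replicate 3 (0.71, adjusted p = 0.0464) or 6 h replicate 3 (0.71, adjusted p = 0.0282). These were the highest control mouse and the lowest 6 h mouse. Without other single mice the change went down to 0.42, with a limma adjusted p of up to 0.174. Against 1 h, the 6 h mice did not overlap and were higher by 0.91 ± 0.14 (adjusted p = 0.00755), and by 0.89 without 6 h replicate 1 (adjusted p = 0.0193). The early values did not pass the test, at -0.51 ± 0.19 at 10 min (adjusted p = 0.280) and -0.36 ± 0.13 at 1 h (adjusted p = 0.344).

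The late Acta1 calls against control were fragile. Of 17 alternatives, which included leaving out each mouse, 8 kept the 24 h call and 11 the 72 h call. The 24 h call was lost without control replicates 1, 2 or 3 (adjusted p = 0.126, 0.142 and 0.0666) or 24 h replicates 1 or 2 (0.107 and 0.117). The 72 h call was lost without control replicates 1 or 2 (0.0516 and 0.0603) or 72 h replicate 1 (0.0571), and it was also lost with median-of-ratios scaling (0.14, adjusted p = 0.394). Skeletal actin is shown with the 250 bases before its RefSeq start, at chr8:123894776-123895025 on the minus strand of GRCm38.p6, because these hold a CArG box, a motif 1.47% of promoter windows hold, and an MCAT match (CATTCC). Capitals mark both, 73 and 46 bases before the start.
Acta1: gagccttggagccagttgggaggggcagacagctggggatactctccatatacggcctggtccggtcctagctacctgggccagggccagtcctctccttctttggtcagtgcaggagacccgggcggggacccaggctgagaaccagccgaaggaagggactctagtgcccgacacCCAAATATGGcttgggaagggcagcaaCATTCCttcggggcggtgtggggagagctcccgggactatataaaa
The Acta1 rise was not shared by the cardiac actin gene Actc1, whose mean was 5424 FPKM in controls and 2963 at 72 h (log2 change -0.87 ± 0.13, adjusted p = 0.000301). No 50-base window of the longest Acta1 transcript occurs in Actc1 or Acta2, whereas 28 of its 1397 windows occur in Actb, a cytoplasmic actin.

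**Figure D3:**
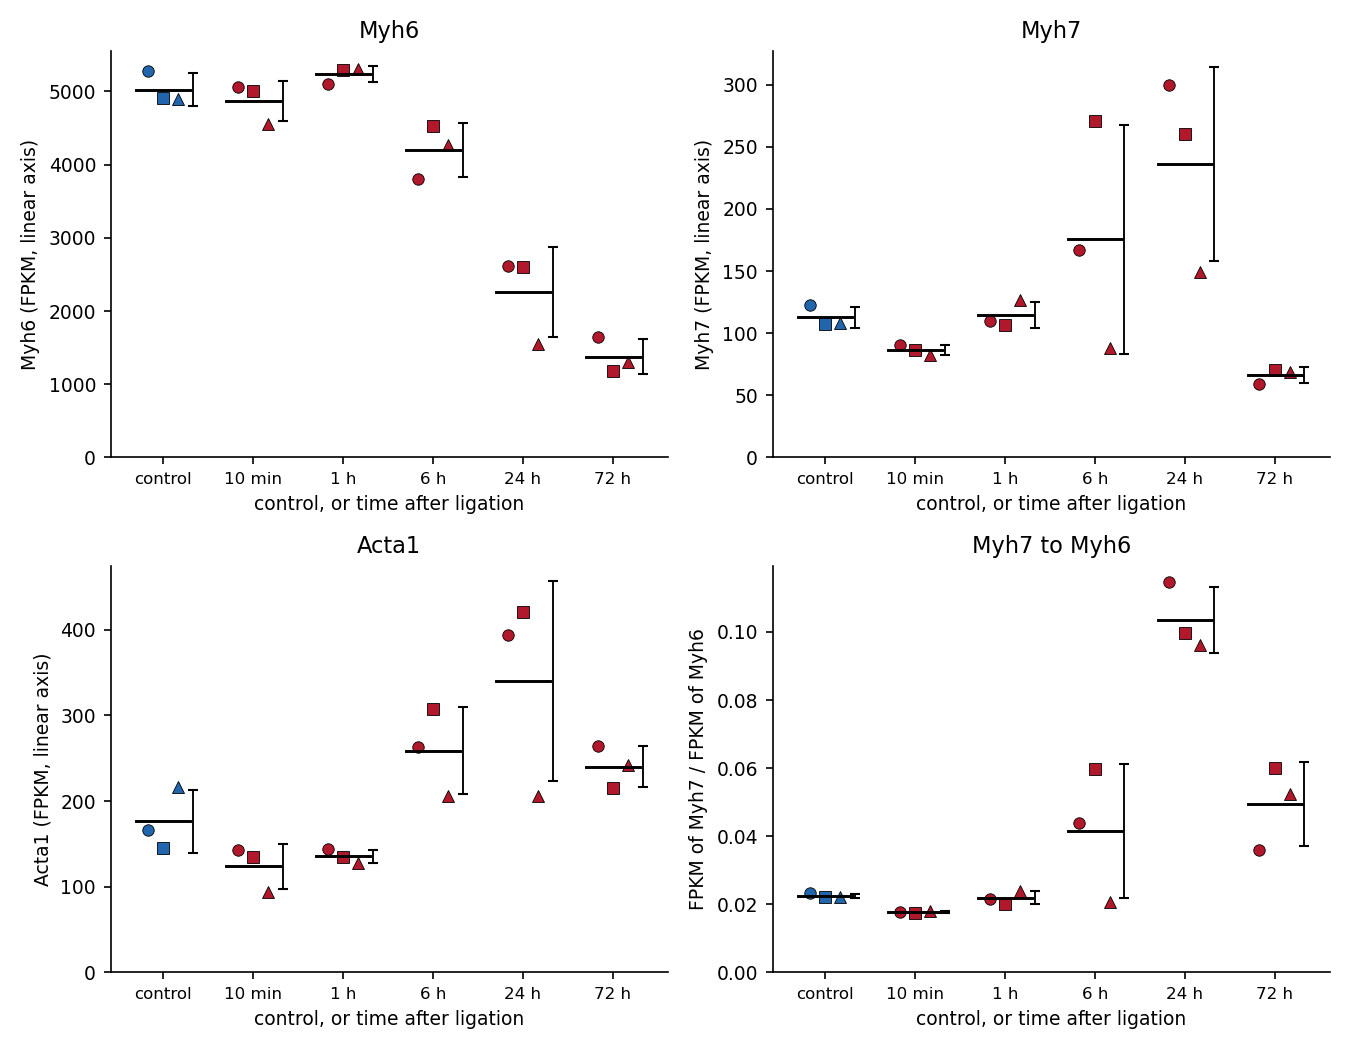
FPKM of Myh6, Myh7 and Acta1 and the ratio of Myh7 FPKM to Myh6 FPKM in each mouse, on linear axes from 0; circles, squares and triangles are replicates 1, 2 and 3, blue is control and red is after ligation, bars are group means and whiskers SD (n = 3). The ratio is highest in the 3 mice at 24 h (0.0962 to 0.115), while Myh7 alone is lowest at 72 h (58.8 to 70.8).

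Counted together, no member passed the test in the first hour. Groups without overlap, 3 mice against 3, reach only p = 0.1 in an exact two-sided permutation test. The share of all genes without overlap is not given here, so a lack of overlap alone is no call. At 10 min none of the 8 passed the test by limma, against 0.346% of all genes tested, and 2 (Myh7 and Acta1) had an unadjusted p under 0.05, against 14.7% of all genes. At 1 h none passed, against 0.722% of all genes, and 3 (Corin, Npr3 and Acta1) had an unadjusted p under 0.05, against 12.6%. Between 10 min and 1 h none passed either, against 0.602% of all genes, and 4 had an unadjusted p under 0.05, against 13.1%. The nearest of those was Myh7, higher at 1 h by 0.40 ± 0.08 (adjusted p = 0.0903).

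At 6 h 1 member, Nppb, was higher, where 11.6% of all genes were called higher, and none was lower, where 16.8% were. Without control replicate 3 or 6 h replicate 2 the count was 2, and without 6 h replicate 3 it was 3. At 24 h 4 were higher (Nppa, Nppb, Myh7 and Acta1) against 26.2% of all genes, and 2 were lower (Npr3 and Myh6) against 11.4%. The 6 calls became 3 without control replicate 1, control replicate 3 or 24 h replicate 2, and 4 without control replicate 2. At 72 h all 8 passed, 3 higher (Nppa, Nppb and Acta1) against 53.1% of all genes and 5 lower (Corin, Npr1, Npr3, Myh6 and Myh7) against 24.2%. With 10307 of 13329 genes called at 72 h, passing the test there does not set a gene apart. These comparisons share the same control mice. Shares of all genes called without single mice are not given here, so those counts do not set the members apart.

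Direct comparisons of neighbouring times do not use the controls. From 1 h to 6 h 2 members rose (Nppb and Acta1), against 9.32% of all genes called higher, and 2 fell (Corin and Myh6), against 11.2%. These 4 calls became 2 without 1 h replicate 1, 1 h replicate 2 or 6 h replicate 1. Nppb was higher at 6 h than at 1 h by 2.65 ± 0.43 (adjusted p = 0.00864), and by 2.29 without 6 h replicate 1 (adjusted p = 0.0172). From 6 h to 24 h 1 rose (Nppa), against 12.5% of all genes, and 2 fell (Npr3 and Myh6), against 1.94%. These 3 calls became 1 without 6 h replicate 1 and 2 without 24 h replicates 1 or 3, and none remained without 6 h replicates 2 or 3 or 24 h replicate 2. From 24 h to 72 h none rose, against 29.7% of all genes, and 3 fell (Nppb, Corin and Myh7), against 13.5%. Without 24 h replicate 3 the count was 5, with Myh6 (-0.94, adjusted p = 0.00417) and Acta1 (-0.76, adjusted p = 0.00183) added. Here too, no share of all genes is given for the fits without single mice.

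The rise of Nppa from 6 h to 24 h was 1.79 ± 0.41 (adjusted p = 0.0349), larger than that of 99.7% of genes. Without 6 h replicate 1 it was 2.17 (adjusted p = 0.0483). It no longer passed without 6 h replicate 2 (adjusted p = 0.0975), 6 h replicate 3 (0.0565), or 24 h replicates 1, 2 or 3 (0.0514, 0.113 and 0.0516).

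**Figure D4:**
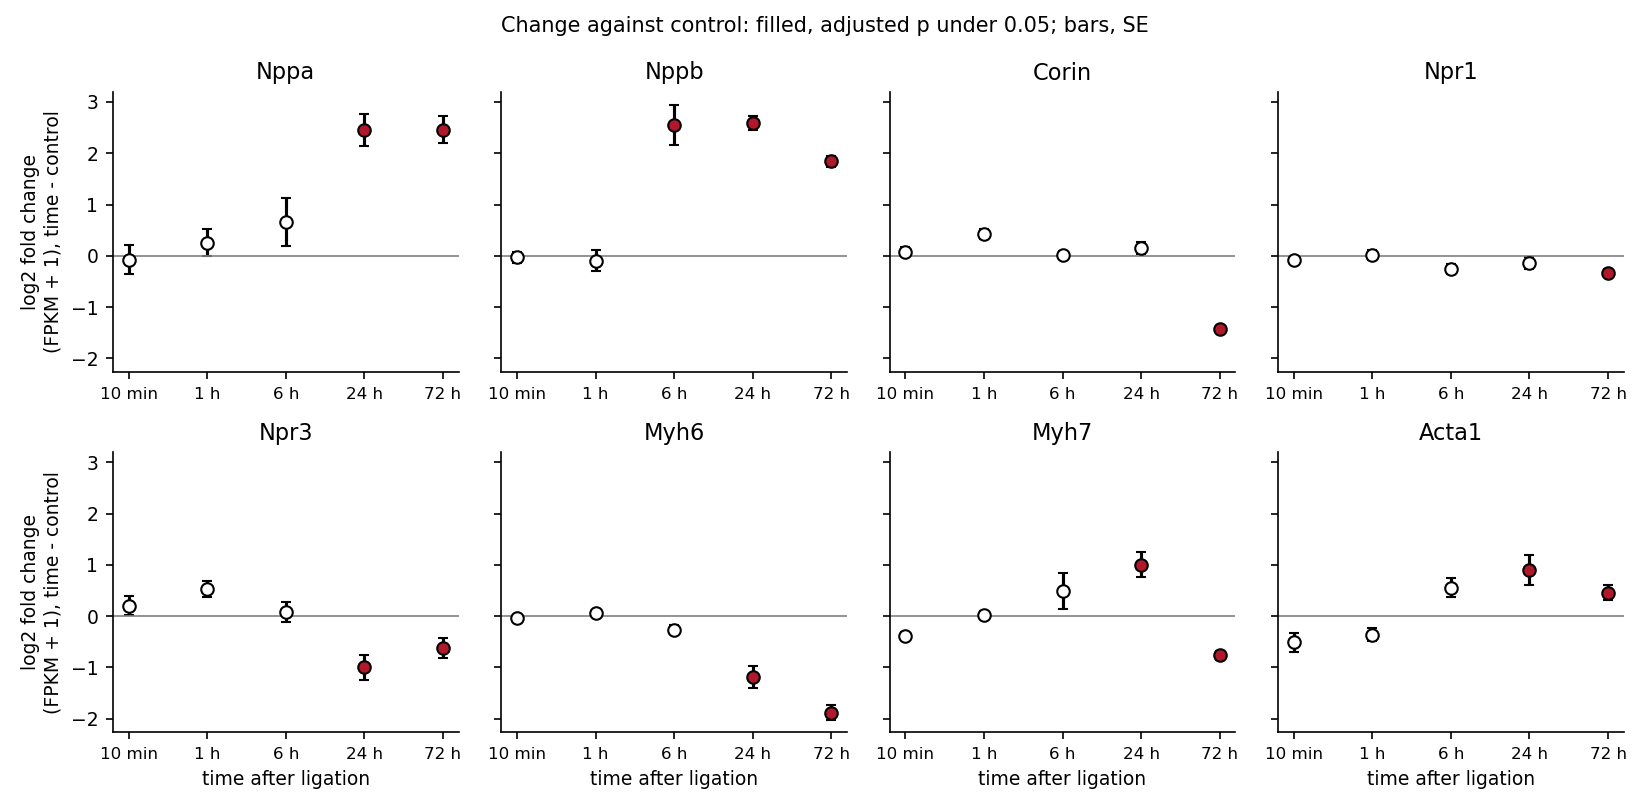
Change of each of the 8 genes against control at 5 times after ligation, as a difference of mean log2(FPKM + 1) with its SE (whiskers), 3 mice against 3; filled points have an adjusted p under 0.05 and the line at 0 marks no change. Nppb is filled from 6 h (2.55), Nppa from 24 h (2.45), and all 8 genes are filled at 72 h, Corin (-1.43) and Myh6 (-1.88) farthest below 0; scaled to cardiomyocyte markers, Corin would stand at 0.034.

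Cardiomyocyte markers were lower at 24 h and 72 h, so each library was also scaled to the geometric mean of its 8 cardiomyocyte markers or of its 7 endothelial markers. The median log2 change of all genes at 72 h was 0.29 in FPKM as deposited, 1.62 after scaling to cardiomyocyte markers and 0.56 after scaling to endothelial markers, and at 24 h 0.13, 0.57 and 0.30. Scaled to cardiomyocyte markers, Corin at 72 h was at 0.034 ± 0.14 (adjusted p = 0.816), while Npr1 was higher by 0.97 ± 0.16 (adjusted p = 1.29e-05), Npr3 by 0.67 ± 0.19 (adjusted p = 0.00212) and Myh7 by 0.71 ± 0.16 (adjusted p = 0.000325), the opposite of their direction in FPKM. All 4 of these changes lay below the median of all genes on that scale. Myh6 stayed lower by 0.39 (SE 0.09, adjusted p = 0.000414), and Nppa, at 3.96 ± 0.20, Nppb, at 3.33 ± 0.16, and Acta1, at 1.95 ± 0.14, lay above that median. Scaled to endothelial markers, all 8 kept the direction they had in FPKM, but Npr1 (-0.07, adjusted p = 0.559) and Npr3 (-0.35, adjusted p = 0.128) did not pass.

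Per unit of cardiomyocyte marker, Nppa rose from 24 h to 72 h by about as much as the median gene did, by 0.97 ± 0.20 on the log2 scale (adjusted p = 0.00193) against 1.00. Per 1000 FPKM of the marker geometric mean, Nppa was 136, 62.1 and 97.3 in controls, 586, 899 and 786 at 24 h, and 1116, 1588 and 1749 at 72 h. Corin on that scale was 29.6, 31.9 and 29.5 in controls and 28.6, 34.6 and 30.3 at 72 h, which overlapped. It was 46.5, 45.2 and 35.2 at 1 h and 52.4, 42.6 and 53.2 at 24 h, all above the control mice. The 10 min and 6 h mice overlapped with controls. The fall of Corin from 24 h to 72 h passed under all 17 alternatives, at -0.66 log2 where it was smallest. The split of all called genes moved with the scaling as well: at 72 h 7081 were higher and 3226 lower in FPKM, 12265 and 160 scaled to cardiomyocyte markers, 8621 and 1857 scaled to endothelial markers, 5208 and 4792 with median-of-ratios scaling, and 4386 and 5710 after quantile normalization. At 24 h the split was 3496 higher and 1516 lower in FPKM, 7851 and 283 scaled to cardiomyocyte markers, and 2460 and 2426 with median-of-ratios scaling. At 6 h it was 1543 and 2233 in FPKM and 2062 and 717 scaled to cardiomyocyte markers.

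**Figure D5:**
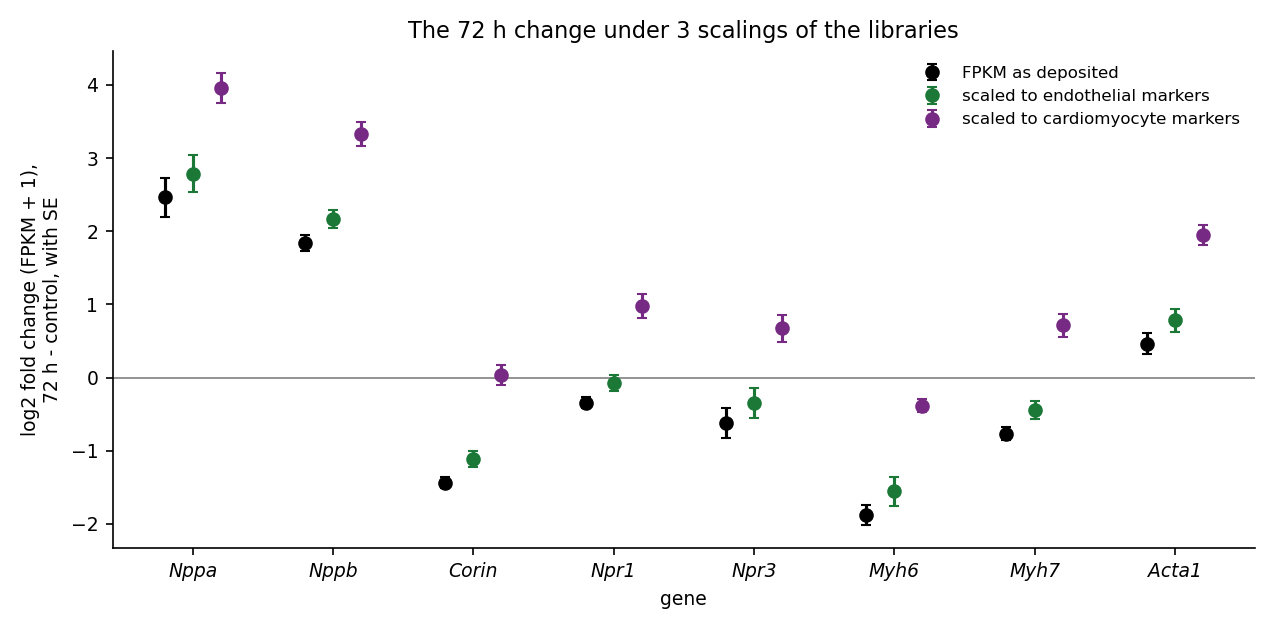
Change of each gene at 72 h against control, as a difference of mean log2(FPKM + 1) with its SE, for FPKM as deposited (black), libraries scaled to endothelial markers (green) and libraries scaled to cardiomyocyte markers (purple), 3 mice against 3. Corin, Npr1, Npr3 and Myh7 lie below 0 in black and at or above 0 in purple (0.034, 0.97, 0.67 and 0.71), whereas Nppa, Nppb and Acta1 are above 0 and Myh6 below 0 in all 3 colours.

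The rest of the natriuretic peptide pathway moved in both directions. Of 15 further genes of peptide processing, receptors and cGMP signalling, 12 were tested, and Nppc, Prkg2 and Ostn were below 1 FPKM in every mouse. At 6 h the test called 2 higher and 7 lower, against 1 and 7 a day after ligation and 5 and 5 at 72 h, with medians of -0.50, -0.37 and -0.05 log2 beside -0.08, 0.13 and 0.29 over all genes. Over all genes the shares called higher and lower were 11.6% and 16.8% at 6 h, 26.2% and 11.4% a day after ligation, and 53.1% and 24.2% by 72 h, so the 5 of 12 higher at 72 h are a smaller share than that of all genes. Furin, a proprotein convertase that cuts the BNP precursor, rose from a mean of 61.3 FPKM in controls to 118 at 6 h (log2 change 0.93 ± 0.12, adjusted p = 0.00268) and 107 at 72 h (0.79 ± 0.08, adjusted p = 3.26e-05). Pcsk6, the convertase that activates corin, fell from 29.9 to 14.2 at 6 h (-1.03 ± 0.12, adjusted p = 0.00189), 11.8 at 24 h and 19.3 at 72 h (-0.63 ± 0.15, adjusted p = 0.00479). Pde9a, a phosphodiesterase selective for cGMP, rose from 4.55 to 8.00 at 72 h (0.70 ± 0.09, adjusted p = 0.00013). Npr2, the receptor of C-type natriuretic peptide, fell from 51.3 to 32.6 (-0.64 ± 0.07, adjusted p = 4.68e-05). At 10 min 1 gene of the list passed, named here after its values were seen: Pde3a, a phosphodiesterase that breaks down cAMP, which rose from 4.71 to 9.60 (0.88 ± 0.12, adjusted p = 0.0378). Of all genes, 0.346% passed at 10 min. At 1 h none of the list passed by limma, against 0.722% of all genes, and 2 had an unadjusted p under 0.05, against 12.6%.

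Of 12 other genes of the fetal cardiac programme, the test called 3 higher and 1 lower at 6 h, against 11.6% and 16.8% of all genes. It called 3 and 0 a day after ligation and 8 and 3 by 72 h, and the 3 medians were -0.10, 0.17 and 0.88 log2 beside -0.08, 0.13 and 0.29 over all genes. The 3 higher at 24 h and the 3 lower at 72 h are close to the shares of all genes, 26.2% and 24.2%. The share of all genes higher at 72 h was 53.1%, and the share lower at 24 h was 11.4%. None passed at 10 min or 1 h by limma, against 0.346% and 0.722% of all genes. At an unadjusted p under 0.05 there were 1 and 2, against 14.7% and 12.6% of all genes. The largest rises at 72 h on the log2(FPKM + 1) scale were Tagln, a smooth muscle actin-binding protein, from 74.9 to 348 FPKM (2.21 ± 0.13, adjusted p = 8.74e-07), and Acta2, smooth muscle actin, from 71.3 to 232 (1.70 ± 0.16, adjusted p = 1.81e-05), both of which are also markers of smooth muscle and of activated fibroblasts. The largest falls on that scale were Hcn4, a pacemaker channel, from 19.3 to 8.25 (-1.15 ± 0.18, adjusted p = 0.000344), and Actc1, given above. Actc1 is counted in this list although it predominates in the adult ventricle, and the list was not recounted without it. The part of the fibroblast and smooth muscle markers in these rises was not tested.

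Of 12 adult cardiomyocyte genes, none was higher at any time, and 4 were lower at 6 h, 10 at 24 h and 12 at 72 h, where 16.8%, 11.4% and 24.2% of all genes were lower. The medians were -0.22, -0.71 and -1.71 log2. The 8 cardiomyocyte markers, 3 of which (Tnni3, Ryr2 and Pln) are also on this list, were all lower at 72 h with a median of -1.48, while all 7 leukocyte markers were higher, and the part of cell makeup in these falls was not tested. None passed at 10 min or 1 h by limma, against 0.346% and 0.722% of all genes. At an unadjusted p under 0.05 there were 3 and 2, against 14.7% and 12.6% of all genes. The largest falls at 72 h on the log2(FPKM + 1) scale were Kcnip2, a subunit of the transient outward potassium channel, from 68.9 to 11.3 FPKM (-2.53 ± 0.15, adjusted p = 9.5e-07), and Ckm, muscle creatine kinase, from 1958 to 448 (-2.16 ± 0.18, adjusted p = 7.84e-06).

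The genes whose log2(FPKM + 1) followed each member most closely over the 18 mice were found by Pearson's r, as a description, since the mice share 6 groups that move together. For Nppa they were Lmna (0.956), Polr1d (0.950) and Mical2 (0.947), for Nppb Itga5 (0.976), Zfp593 (0.972) and Fhad1 (0.969), for Corin Dsg2 (0.966), Tom1l2 (0.964) and Pmpca (0.962), and for Myh6 Tcea3 (0.990), Eno3 (0.989) and Tufm (0.988). Likeness was looser for Npr1 with Ccm2l (0.894), Slc26a10 (0.876) and Ushbp1 (0.868), for Npr3 with Gaa (0.912), Gsn (0.906) and Dpep1 (0.905), for Myh7 with Hspb7 (0.908), Cav3 (0.903) and Des (0.884), and for Acta1 with Socs2 (0.906), Nmrk2 (0.849) and Xirp2 (0.846). After the group means were taken out, Nppa and Nppb still went together across mice (r = 0.73, beside 0.75 over the 18 mice). The 6 h mice, with the library that held atrial markers, spread widest in both genes and weigh most in that r. Their Nppa ran from 254 to 851 FPKM and their Nppb from 194 to 646. At 24 h Nppa was highest in replicate 2 (2273) and Nppb in replicate 3 (467). No r was computed without the 6 h mice. Myh6 and Acta1 went together only after the group means were taken out (0.74), with an r of -0.51 over the 18 mice. In both, 24 h replicate 3 was the lowest of its group (Myh6 1553 and Acta1 206 FPKM) and weighs most in the 0.74. Nppa and Myh6, at -0.87 over the 18 mice, did not go together after that step (0.06).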

How the data were processed

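RNA-seq libraries were made by the authors with a NEBNext Ultra kit, and per the labels and methods reads were trimmed with cutadapt 1.18, mapped to mm10 with HISAT2 2.1.0 and quantified with StringTie 1.3.4d. The annotation and the use of strand are not given in the sources used here. Their deposited values are FPKM, one column a mouse for 18 mice, and the table was used without further scaling. It gives no counts, so no counting error could be computed. Relative depth, read from the smallest FPKM steps, was 0.818 to 1.31 of control replicate 1, and FPKM sums were 542418 to 600467. Groups came from sample titles.

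Values were tested as log2(FPKM + 1), a scale that understates changes of low genes, with limma 3.58.1 in R 4.3.3 (lmFit, eBayes with a variance trend) on the 6 mice of each of 9 comparisons, with two-sided p-values adjusted by Benjamini-Hochberg over the genes tested and called at 0.05. Ratios were tested by exact permutation in Python 3.11.15 (numpy 2.4.6, scipy 1.17.1, pandas 2.3.3, matplotlib 3.10.9). The steps were tested on simulated data.

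The members and lists were chosen with earlier results of these data known. Named are the 8 members, the 2 largest rises and falls called per list at 72 h, the 3 genes most like each member (predicted genes left out) and Mhrt, Pde3a and the atrial markers. Positions are those of GENCODE M21, and promoter sequences those of RefSeq (GRCm38.p6), which held all 8 members. Alternatives were other scalings, a pseudocount of 0.1, other filters, all 18 mice in one fit, no variance trend, the replicate number as a block and leaving out each mouse.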

Additional observations from a re-analysis of the deposited data

Results flagged for a closer look

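Each of these results stands out because the level of a member differed between neighbouring times in a direct limma test, so its change against control was not the same at both times. From 1 h to 6 h Nppb (log2 difference 2.65) and Acta1 (0.91) were higher, and Corin (-0.41) and Myh6 (-0.32) were lower. From 6 h to 24 h Nppa (1.79) was higher, and Npr3 (-1.08) and Myh6 (-0.93) were lower. From 24 h to 72 h Nppb (-0.75), Corin (-1.59) and Myh7 (-1.77) were lower. Groups of 3 mice were too small for a test of single outlying libraries.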

How the results depend on the processing

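With FPKM as the only input, precision rests on 3 mice a group, and depth behind single values is unknown. Replicate numbers did not pair the mice: of 15 correlations between the deviations of same-numbered mice none was over 0.1 (lowest -0.26, highest 0.08). With the replicate number as a block, the count of members called went from 4 to 2 for 6 h against 1 h. Calls over all genes went from 1241 higher and 1490 lower to 933 and 821. For 24 h against 6 h the count went from 3 to 0, and calls over all genes from 1664 and 258 to 1 and 0. Against control the count was 5 at 24 h, beside 2971 higher and 1211 lower over all genes. At 72 h the count was 8, beside 7024 and 3191. The paired difference of the log2 Myh7 to Myh6 ratio was 2.20 at 24 h (exact sign-flip p = 0.25, the smallest possible).

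Nppa and Nppb passed against control at 24 h and 72 h under all 17 alternatives, as did Myh6 at both times and Nppb at 6 h. Over 765 values of single members, 661 kept direction and side of the threshold, 74 lost the call, 23 gained it and 7 changed sign. All 7 came from scaling to cardiomyocyte markers: at 72 h against control Corin (0.034), Npr1 (0.97), Npr3 (0.67) and Myh7 (0.71), and at 72 h against 24 h Nppb (0.20), Myh6 (0.26) and Acta1 (0.51). The cause was not tested.

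The count of members called was 2 in place of 1 for 6 h against control with the same FPKM sum, median-of-ratios scaling, either marker scaling or a mean FPKM of at least 1. Over all genes these settings called 1420 to 2062 higher and 717 to 2346 lower, beside 1543 and 2233 with the main settings. The count was 1 in place of 0 for 1 h against 10 min with either marker scaling. Over all genes 63 were then higher and 29 lower with cardiomyocyte markers, and 107 and 8 with endothelial markers, beside 52 and 28. For 6 h against 1 h the count was 2 in place of 4 with median-of-ratios scaling, either marker scaling, no filter or no variance trend. These settings called 964 to 1610 of all genes higher and 513 to 1515 lower, beside 1241 and 1490. For 24 h against 6 h the count was 0 in place of 3 without a filter. Of 18249 genes 976 were then higher and 131 lower, beside 1664 and 258 of 13328. For 72 h against 24 h the count was 6 in place of 3 scaled to cardiomyocyte markers. Of 13330 genes 10470 were called higher and 81 lower on that scale, so 6 calls do not set the members apart.

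Leaving out each mouse gave 0 members called at 10 min, 0 to 1 at 1 h, 1 to 3 at 6 h, 3 to 6 at 24 h and 7 at 72 h against control. It gave 0 to 1 for 1 h against 10 min, 2 to 5 for 6 h against 1 h, 0 to 2 for 24 h against 6 h and 3 to 5 for 72 h against 24 h. Each of these fits has 1 mouse fewer for every gene, and their shares of all genes called are not given here. The counts therefore do not set the members apart. The log2 ratio of Myh7 to Myh6 ranged from -0.36 to -0.32 at 10 min, -0.11 to 0.016 at 1 h, 0.42 to 1.19 at 6 h, 2.12 to 2.25 at 24 h and 0.95 to 1.32 at 72 h.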

Other observations

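The ratio of Nppa FPKM to Nppb FPKM, looked at after the values had been seen, was close to constant among the 6 h mice although the genes themselves were not. It was 1.32, 1.25 and 1.31 at 6 h, while Nppa ran from 254 to 851 FPKM and Nppb from 194 to 646. In controls it was 6.52, 3.24 and 5.51, in the 24 h mice 4.55, 5.53 and 3.31, and in the 72 h mice 7.55, 6.37 and 8.62. All 6 h mice thus lay below all others. The log2 ratio at 6 h against control was -1.92 ± 0.30 (exact two-sided permutation p = 0.1, the smallest that 3 against 3 mice allow, adjusted over 9 comparisons 0.225), which does not pass, and having been chosen from these values it is no independent test. At 6 h, replicate 1, the library with atrial markers, did not stand apart in the ratio.

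At 6 h, replicate 3 was the lowest of its group for Nppa, Nppb, Myh7 and Acta1, and its ratio of Myh7 to Myh6, 0.0206, was below the control range. Ankrd1, a cardiac ankyrin repeat protein induced by strain and chosen here after its values were seen, was also lowest in that mouse, at 1834 FPKM beside 3746 and 3400, yet above the control range of 604 to 744.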
